A study of Mus musculus with 6 samples.

Results

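Pcdhb16 to Pcdhb22 are the last 7 genes of the mouse beta protocadherin cluster on chromosome 18, counted in the direction of transcription. They were taken by gene symbol, through the Entrez IDs in the count files, and all 7 were found among 27179 gene records, 22 of which are beta protocadherins. RNA was sequenced from neural stem cells cultured from the brains of male E14.5 mouse embryos (embryonic day), of the strain given as C57BL/6 x FVB/N. The medium held the growth factors EGF (20 ng/ml) and bFGF (20 ng/ml). One group of 3 libraries was wild type for Smchd1, and the other 3 libraries were homozygous for the MommeD1 allele, which the labels call Smchd1 null. No label says that replicates within a group came from separate embryos or derivations, so the p-values measure only how far these samples spread, and that spread may be technical. The comparison asked how the RNA of these genes differed between null and wild type cells.

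Clustered protocadherins are adhesion proteins of the cell surface, known from neurons, where each cell switches on its own small choice of them from 3 neighbouring gene clusters named alpha, beta and gamma. Proteins of the same kind on facing membranes bind each other, which lets a neuron tell its own branches from those of its neighbours. Alpha and gamma genes splice their own first exon to shared last exons. A beta gene instead encodes its whole protein, with a row of cadherin repeats, a membrane-spanning segment and a short cytoplasmic tail, in a single exon of its own. The promoters are known to be chosen through DNA methylation and through contacts with distant enhancers held by CTCF and cohesin. Smchd1 codes for an SMC-like protein of chromatin that is known to help keep gene clusters and the inactive X chromosome silent.

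The 7 genes lay on the same strand within 43652 bases of the mm10 assembly. Pcdhb16 (Entrez 93887) spans chr18:37477768-37483038, and Pcdhb17 (Entrez 93888) spans chr18:37485021-37488290. Pcdhb18 (Entrez 93889) spans chr18:37489465-37494503, and Pcdhb19 (Entrez 93890) spans chr18:37496998-37501711. Pcdhb20 (Entrez 93891) spans chr18:37504264-37507660, and Pcdhb21 (Entrez 93892) spans chr18:37513652-37516363. Pcdhb22 (Entrez 93893), the last beta gene, spans chr18:37518353-37521419, and 115958 bases separate it from Slc25a2, the next gene that encodes a protein. For all 7 the deposited gene length equalled the RefSeq span, so each was counted as 1 uninterrupted exon. GENCODE M21 ends Pcdhb17 1164 bases, Pcdhb19 2417 bases, Pcdhb21 1962 bases and Pcdhb22 3060 bases further downstream. There the end of Pcdhb21 overlaps the start of Pcdhb22 by 455 bases, which lie outside the deposited length of both genes.

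The coding sequences of the 7 genes were about equally far from each other. Identity of aligned bases between 2 of them ran from 74.4% to 77.7% (median 76.0% over 21 pairs), with Pcdhb19 and Pcdhb20 the closest pair. Identity among the other 15 beta genes reached 89.7%, for Pcdhb7 with Pcdhb9, and Pcdhb4 to Pcdhb12 held most of the close pairs. A read of 100 bases placed anywhere in Pcdhb16, Pcdhb18, Pcdhb21 or Pcdhb22 matched no annotated transcript of another gene exactly. For Pcdhb17, Pcdhb19 and Pcdhb20 the unique share of such windows was 99.5%, 99.6% and 99.8%, and the few shared ones were shared among these 3 genes. With windows of 50 bases the unique share lay between 94.3% (Pcdhb20) and 98.0% (Pcdhb16). Neither the read length nor the handling of multiply matching reads is stated in the sources used here, and similar genes can still exchange reads that carry mismatches.

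**Figure D1:**
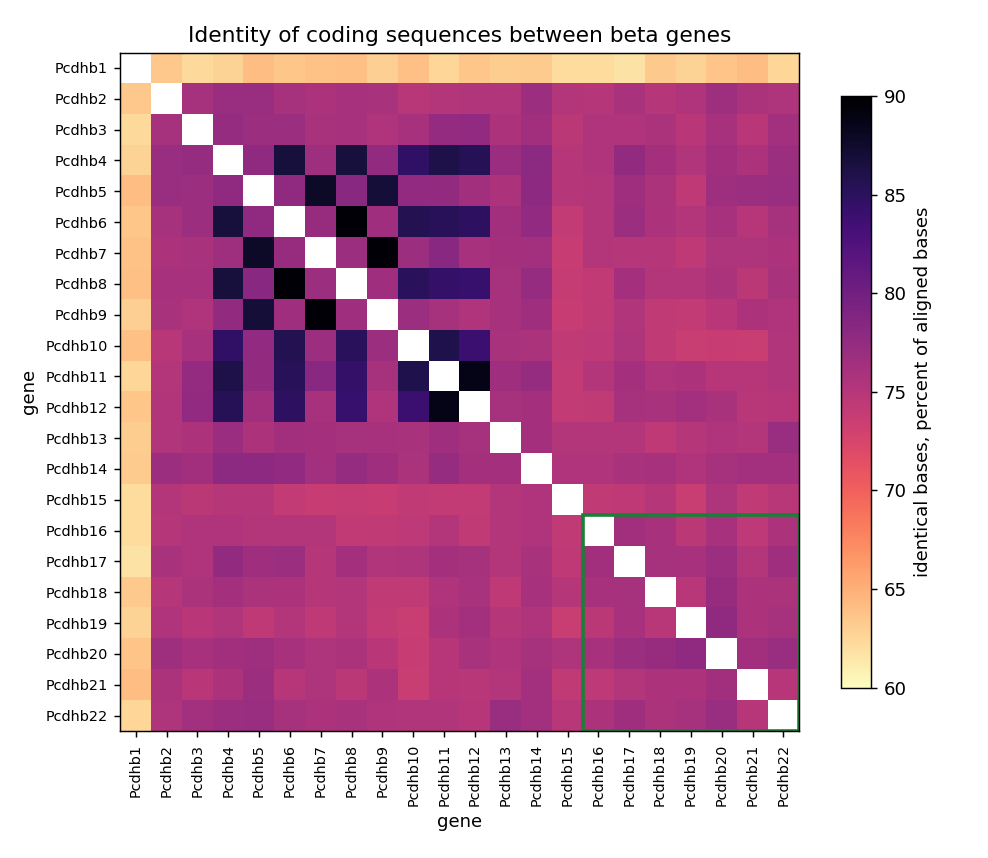
Percent of identical bases between the coding sequences of every pair of the 22 beta genes, in chromosomal order on both axes, with the diagonal left blank. The green square marks Pcdhb16 to Pcdhb22, where no pair exceeds 77.7%, while the dark cells between Pcdhb4 and Pcdhb12 reach 89.7%.

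Total counts per library ran from 18608881 to 23253367. Wild type replicate 3 stood apart, since 1 record, Entrez 100861531, held 44.6% of all its counts. In the other 5 libraries the largest record, whichever it was, held 2.11% to 5.90%. The depth of wild type replicate 3 after scaling was 10.1 M counts against 21.3 to 25.8 M. Against wild type replicates 1 and 2 it had a median chi-square per gene of 93.6 and 99.2. These were taken on unscaled total counts, so the skew of its counts is part of them. Wild type replicates 1 and 2 had 1.31 between them, while null pairs had 0.927 to 1.18. Smchd1 itself stood at 271, 260 and 232 CPM (counts per 1 M counts of the library, after TMM scaling, which sets libraries equal over most genes) in wild type replicates 1 to 3 and at 27.9 to 31.1 CPM in the null libraries (log2 fold change -3.10), which matches the labels. Neural stem cell markers such as Nes and Sox2 were expressed in all 6 libraries, with a summed level of 5366 to 5839 CPM for 12 markers in wild type and 5344 to 5485 CPM in null. All 6 microglia markers lay under 1 CPM in every library, with Itgam and C1qa at 0. For 13 neuronal markers the null sums, 1489 to 1528 CPM, lay below the wild type sums, 1594 to 1623 CPM. Map2 alone made up most of each sum (mean 1084 CPM for wild type, 981 CPM for null). Of 12 neuronal markers tested, 7 had a log2 fold change above 0 (median 0.05), and 1 was called higher. Their groups did not overlap for 2 with null higher and for 1, Map2, with null lower. Stmn2 lay under 1 CPM throughout.

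Markers of the oligodendrocyte lineage set wild type replicates 1 and 2 apart from the other 4 libraries. Pdgfra, a receptor of oligodendrocyte progenitors, stood at 17.1 and 18.3 CPM in wild type replicates 1 and 2, at 167 CPM in wild type replicate 3 and at 112.6 to 137.5 CPM in the null libraries. Sox10, a transcription factor of this lineage, stood at 0.543, 0.426 and 7.24 CPM in wild type replicates 1 to 3 and at 3.01 to 3.75 CPM in null. The 10 markers of the lineage summed to 1219, 1123 and 1612 CPM in wild type replicates 1 to 3 and to 1438 to 1519 CPM in null, with none at 0 throughout and Mog under 1 CPM. Their log2 fold changes were above 0 for 9 of 10 (median 0.62), and edgeR, DESeq2 and limma-voom each called 0 of them, with 1 at an unadjusted p under 0.05 in edgeR. With wild type replicate 3 left out, 9 of the 10 were called higher in edgeR, and limma-voom with quality weights called 8 higher. Calls were common among all genes in both settings. Without wild type replicate 3, 2857 of 14494 genes were called higher and 2819 lower, and with quality weights 2736 and 2493 of 14207. The 8 astrocyte markers summed to 877, 936 and 1150 CPM in wild type replicates 1 to 3 and to 1018 to 1042 CPM in null, with none at 0 throughout and 6 of 8 log2 fold changes above 0 (median 0.37). Of these, edgeR and limma-voom called 0 and DESeq2 called 2 lower, with 2 at an unadjusted p under 0.05 in edgeR, and with wild type replicate 3 left out 6 were called higher and 2 lower in edgeR, the counts that limma-voom with quality weights also gave. Wild type replicate 3 thus lay above the null libraries in both sums, and wild type replicates 1 and 2 lay below them. The part of these markers, and of the neuronal ones, in the protocadherin results was not tested.

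All 7 genes were expressed in wild type cells, and 5 of them rose without Smchd1. Pcdhb22 and Pcdhb21 rose most, 2.88-fold and 2.46-fold, while Pcdhb16, Pcdhb18 and Pcdhb19 rose about as much as each other, 2.13-fold, 2.099-fold and 1.97-fold. Pcdhb20 (log2 fold change 0.85) and Pcdhb17 (0.23) did not pass the test. The test was edgeR's two-sided quasi-likelihood F-test over 14207 genes with Benjamini-Hochberg adjustment at 0.05, in which 0.577% of all tested genes were called, 0.507% higher and 0.0704% lower in null. None of the 7 was called lower, and 4 of them had a log2 fold change above 1, as had 2.25% of all tested genes. An unadjusted p under 0.05 was found for 6 of the 7 and for 18.6% of all tested genes. The 7 genes had a median log2 fold change of 1.07, against 0.001 over all tested genes. All 7 passed the filter on low counts, with at least 35 counts in every library. In cultures measured in bulk, more cells with a gene switched on and more RNA per cell cannot be told apart.

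**Figure D2:**
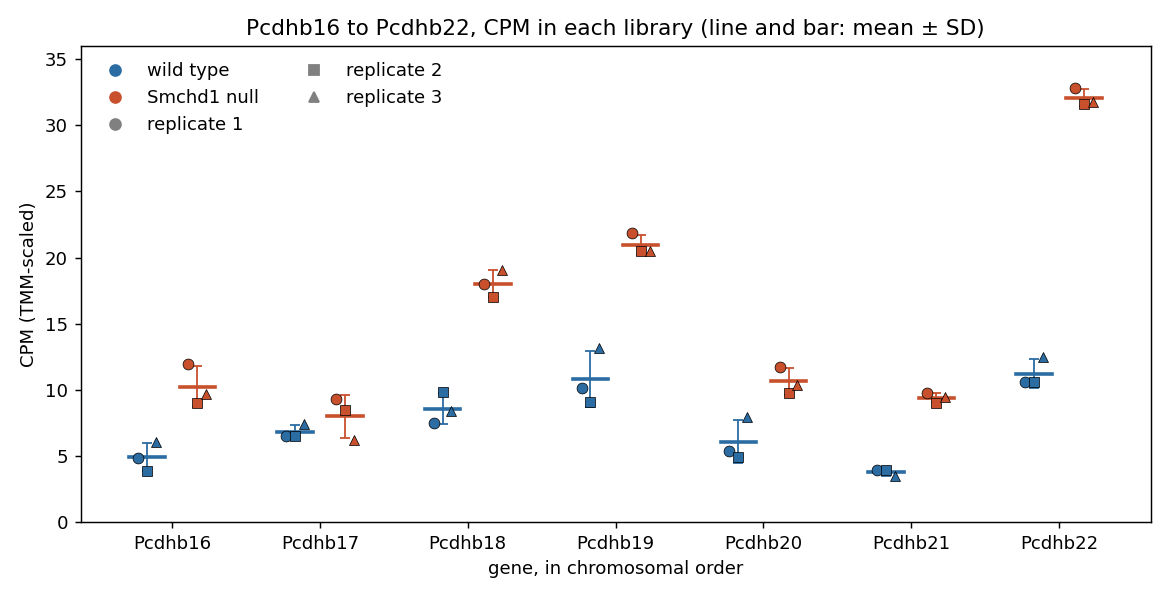
CPM (TMM-scaled) of the 7 genes, in chromosomal order, in each of the 3 wild type (blue) and 3 Smchd1 null (orange) libraries, with the shape of a point giving the replicate and the line and bar the mean ± SD. The null points lie above all wild type points for every gene except Pcdhb17, whose null replicate 3 (6.20 CPM) lies below the 3 wild type libraries.

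Pcdhb22 had the highest level per length of the 7 genes and the largest rise. Its counts were 274, 248 and 126 in wild type replicates 1 to 3 and 699, 675 and 713 in null replicates 1 to 3. Scaled to depth these were 10.6, 10.6 and 12.5 CPM in the wild type libraries and 32.8, 31.6 and 31.8 CPM in the null ones. The null libraries lay close together and far above every wild type library. The log2 fold change was 1.53 with an SE of 0.09 (edgeR adjusted p = 0.00029), the third smallest p of all tested genes. The gene passed under all 20 other settings of the test, with log2 fold changes from 1.36 to 1.87.

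Pcdhb21, its upstream neighbour, had the fewest counts of the 7 genes in the shallowest library. It had 101, 93 and 35 counts in wild type and 208, 193 and 212 in null. The levels were 3.91, 3.97 and 3.47 CPM in the wild type libraries (3.78 ± 0.271, mean ± SD, n = 3) and 9.77, 9.04 and 9.45 CPM in the null ones (9.42 ± 0.366). Both groups were tight, and Pcdhb21 was the only one of the 7 genes with its lowest wild type value in replicate 3. Its log2 fold change was 1.30 with an SE of 0.13 (edgeR adjusted p = 0.00271). It also passed under all 20 other settings, with log2 fold changes from 1.25 to 1.60.

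Pcdhb18 had 193, 231 and 85 counts in wild type and 384, 363 and 428 in null. These gave 7.48, 9.85 and 8.43 CPM in the wild type libraries and 18.04, 17.01 and 19.08 CPM in the null ones, so that the lowest null library stood well above the highest wild type one. The log2 fold change was 1.07 with an SE of 0.12 (edgeR adjusted p = 0.00599). The call was lost without null replicate 1 (adjusted p = 0.0673) or null replicate 3 (adjusted p = 0.0683), while the log2 fold change stayed between 0.96 and 1.38 over the 20 other settings.

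Pcdhb19 was second to Pcdhb22 in wild type level per length. Its counts were 262, 214 and 133 in wild type and 465, 438 and 460 in null. The levels were 10.2, 9.12 and 13.2 CPM in the wild type libraries (10.8 ± 2.12, mean ± SD, n = 3) and 21.8, 20.5 and 20.5 CPM in the null ones (21.0 ± 0.770). Wild type replicate 3 was the highest of its group, and still below every null library. The log2 fold change was 0.98 with an SE of 0.13 (edgeR adjusted p = 0.0153). Leaving out any single library except wild type replicate 3 ended the call (adjusted p between 0.0567 and 0.1435).

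Pcdhb16 had the lowest level per length of the 7 genes and a call close to the threshold. It had 125, 91 and 61 counts in wild type and 255, 193 and 218 in null. The levels were 4.84, 3.88 and 6.05 CPM in the wild type libraries and 11.98, 9.04 and 9.72 CPM in the null ones, and the groups did not overlap. The log2 fold change was 1.09 with an SE of 0.18 (edgeR adjusted p = 0.0449). It passed under 9 of the 20 other settings. It was lost with the replicate number as a block (adjusted p = 0.0715), without any single library other than wild type replicate 3 (adjusted p from 0.1525 to 0.306), and with the range of sample-name numbers as a term (log2 fold change 0.76, adjusted p = 0.148).

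Pcdhb20 had separate groups without a call. Its counts were 139, 115 and 80 in wild type and 250, 209 and 233 in null. The levels were 5.39, 4.90 and 7.94 CPM in the wild type libraries and 11.7, 9.79 and 10.4 CPM in the null ones, with wild type replicate 3 closest to the null libraries. The log2 fold change was 0.85 ± 0.18 (SE) with a 95% interval of 0.44 to 1.27, and its adjusted p was 0.102 from edgeR. Without wild type replicate 3 the log2 fold change was 1.04 (adjusted p = 8.94e-06), and with the sample-name term it was 0.42 (adjusted p = 0.343). DESeq2 (adjusted p = 0.00681) and limma-voom (adjusted p = 0.0374) called it higher in null.

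Pcdhb17 was the exception among the 7. It had 169, 153 and 75 counts in wild type and 198, 181 and 139 in null. The levels were 6.55, 6.52 and 7.44 CPM in the wild type libraries (6.84 ± 0.523, mean ± SD, n = 3) and 9.30, 8.48 and 6.20 CPM in the null ones (7.99 ± 1.61), with null replicates 1 and 2 above and null replicate 3 below every wild type library. The log2 fold change was 0.23 ± 0.17 (SE) with a 95% interval of -0.15 to 0.62, and the adjusted p was 0.449 from edgeR. It was called under none of the 20 other settings (adjusted p from 0.152 to 0.905). The interval reaches neither a log2 fold change of 1 nor the fitted values of the other 6 genes, yet it leaves room for a rise of up to 0.62. It does overlap the interval of Pcdhb20 (0.44 to 1.27).

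In all, 6 of the 7 genes had null libraries that all exceeded the wild type ones, against 11.4% of all tested genes (22% when either direction is counted). Ratios within a library, which do not depend on the scaling between libraries, were then used to compare the genes with each other. Pcdhb17 was taken as the common denominator because it was seen to have the smallest fold change of the 7 genes, without a call. The ratios are therefore a description and no test of them is given. The log2 ratio of Pcdhb22 to Pcdhb17 counts was 0.71 ± 0.03 in wild type and 2.03 ± 0.29 in null (mean ± SD, n = 3). That of Pcdhb21 to Pcdhb17 was -0.85 ± 0.21 and 0.26 ± 0.30. For Pcdhb16, Pcdhb18, Pcdhb19 and Pcdhb20 the ratio to Pcdhb17 was higher in null by 0.86, 0.87, 0.76 and 0.63. All 6 ratios were higher in each null library than in each wild type library. They share the same denominator, chosen for its small rise in these libraries, so this count adds no support of its own.

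The make-up of the 7 genes' own counts, drawn from the same counts as the ratios, gives another view of the same difference. Pcdhb17 took 13.4%, 13.4% and 12.6% of them in wild type replicates 1 to 3 and 8.05%, 8.04% and 5.78% in null replicates 1 to 3. Pcdhb22 took 21.7%, 21.7% and 21.2% in wild type and 28.4%, 30.0% and 29.7% in null. Wild type replicate 3 was close to the other wild type libraries in both shares. Pcdhb21 took 5.88% to 8.12% in wild type and 8.46% to 8.82% in null. For Pcdhb16, Pcdhb18, Pcdhb19 and Pcdhb20 the shares of the groups overlapped.

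Levels can be compared between genes once divided by length. In wild type cells Pcdhb22 had 3.66 ± 0.359 CPM per kb (mean ± SD, n = 3), above all libraries of the next gene, Pcdhb19 (2.30 ± 0.449). Pcdhb17 (2.09 ± 0.16), Pcdhb20 (1.79 ± 0.48) and Pcdhb18 (1.70 ± 0.237) followed, and each overlapped the gene placed before it. Pcdhb21 (1.40 ± 0.0999) and Pcdhb16 (0.935 ± 0.207) came last, each separate from the gene placed before it, though Pcdhb21 overlapped Pcdhb20. In null cells the order was Pcdhb22 (10.5 ± 0.215 CPM per kb), Pcdhb19 (4.45 ± 0.163), Pcdhb18 (3.58 ± 0.206), Pcdhb21 (3.47 ± 0.135), Pcdhb20 (3.13 ± 0.295), Pcdhb17 (2.44 ± 0.492) and Pcdhb16 (1.94 ± 0.292). Pcdhb17 thus moved from the third place to the sixth. In null cells the libraries of Pcdhb18, Pcdhb21 and Pcdhb20 overlapped in this order, as did those of Pcdhb17 and Pcdhb16, and the other neighbours were separate.

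Against the rest of the cluster, Pcdhb16 to Pcdhb22 ranked higher in wild type cells than in null cells. By their means in wild type cells 6 of them held the first 6 places among the 22 beta genes by CPM per kb, and Pcdhb16 was in place 8. In wild type replicate 3 alone, Pcdhb11 (1.81) exceeded Pcdhb16 (1.15), Pcdhb18 (1.67) and Pcdhb21 (1.28). By their means in null cells the 7 genes held places 1, 4, 5, 6, 8, 12 and 14. Pcdhb11, chosen after its values were seen, had 0.954 ± 0.746 CPM per kb in wild type and 9.88 ± 1.35 in null. Its null libraries overlapped those of Pcdhb22, with 8.34, 10.4 and 10.9 CPM per kb against 10.7, 10.3 and 10.4 in null replicates 1 to 3, so the first place was shared within the spread. Most genes upstream had lower wild type levels and higher fold changes. All 8 genes of Pcdhb1 to Pcdhb8 were called higher in null, with a median log2 fold change of 3.12, and 4 of the 7 genes of Pcdhb9 to Pcdhb15 were, with a median of 2.06. Those with the smallest p were Pcdhb4 (3.38 ± 0.22, SE) and Pcdhb5 (2.49 ± 0.19) in the first stretch and Pcdhb10 (3.02 ± 0.26) and Pcdhb12 (2.06 ± 0.21) in the second. With the sample-name term the medians of the 3 stretches, in chromosomal order, were 2.33, 1.53 and 0.76. These lists were chosen with the results known, and the difference between their medians was not tested.

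**Figure D3:**
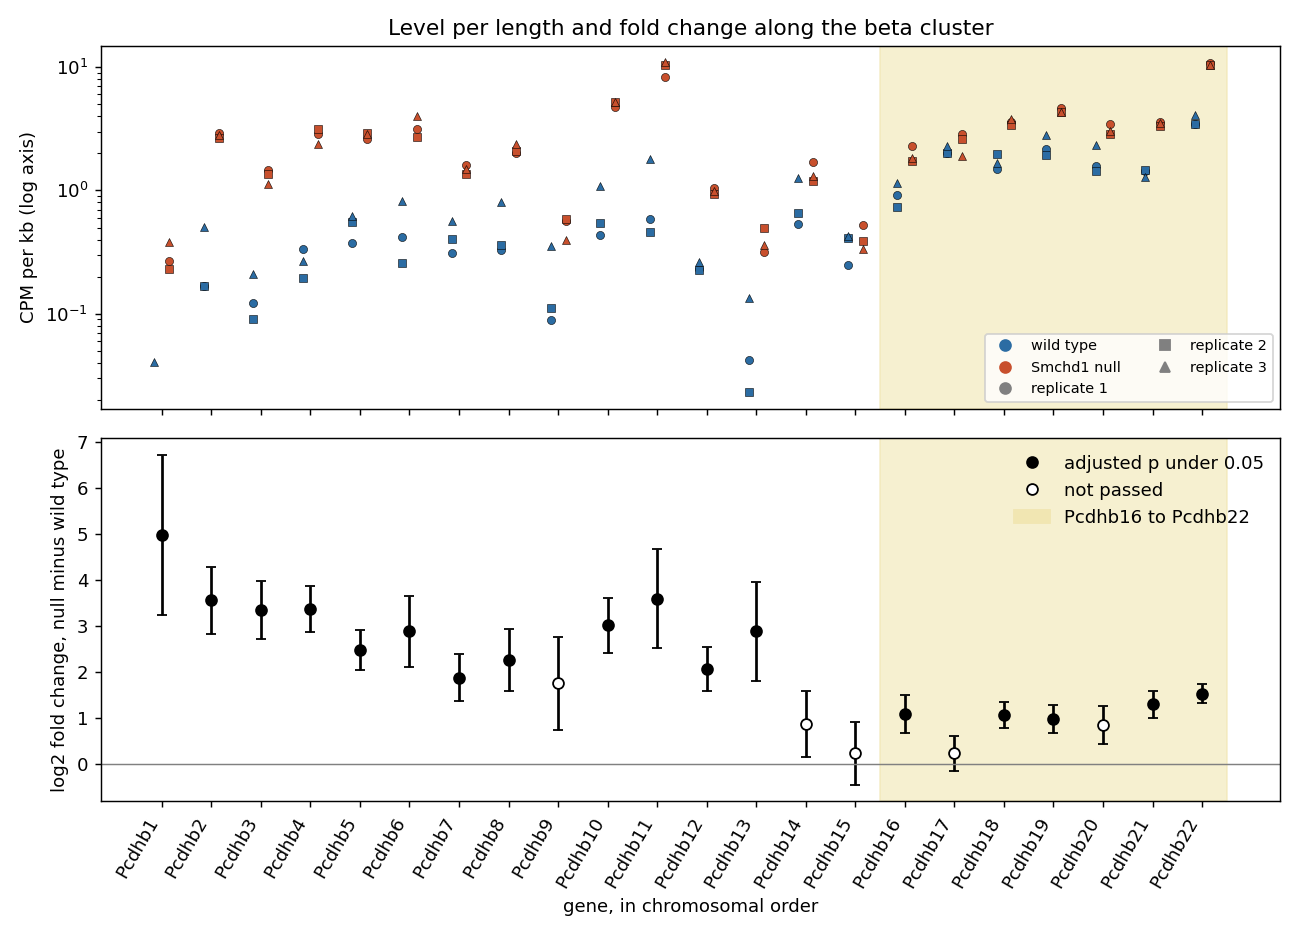
Upper panel, CPM per kb on a log axis for each of the 22 beta genes in chromosomal order, in 3 wild type (blue) and 3 Smchd1 null (orange) libraries (2 wild type libraries with 0 counts of Pcdhb1 are not drawn). Lower panel, log2 fold change of null minus wild type with its 95% interval, filled where the adjusted p was under 0.05. In the shaded stretch, Pcdhb16 to Pcdhb22, wild type levels are higher than in most genes upstream and fold changes lie between 0.23 and 1.53.

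Pcdhb16 to Pcdhb22 made up most beta protocadherin RNA in wild type cells and about as much as the other 15 genes together in null cells. They took 78.6%, 77.6% and 67.2% of the beta cluster's counts in wild type replicates 1 to 3 and 51.5%, 47.9% and 47.8% in null replicates 1 to 3. Their summed counts were 1263, 1145 and 595 in wild type and 2459, 2252 and 2403 in null. The share was lower in null while the summed level was 52.3 ± 5.86 CPM in the wild type libraries and 109.4 ± 5.38 CPM in the null ones (mean ± SD, n = 3). Divided by gene length before summing, the share was 71.0% ± 6.95 in wild type and 45.4% ± 2.06 in null. Wild type replicate 3 lay between the other wild type libraries and the null ones, mainly through Pcdhb9 to Pcdhb15, which took 20.0% of the cluster's counts there against 11.3% and 12.3% in wild type replicates 1 and 2.

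**Figure D4:**
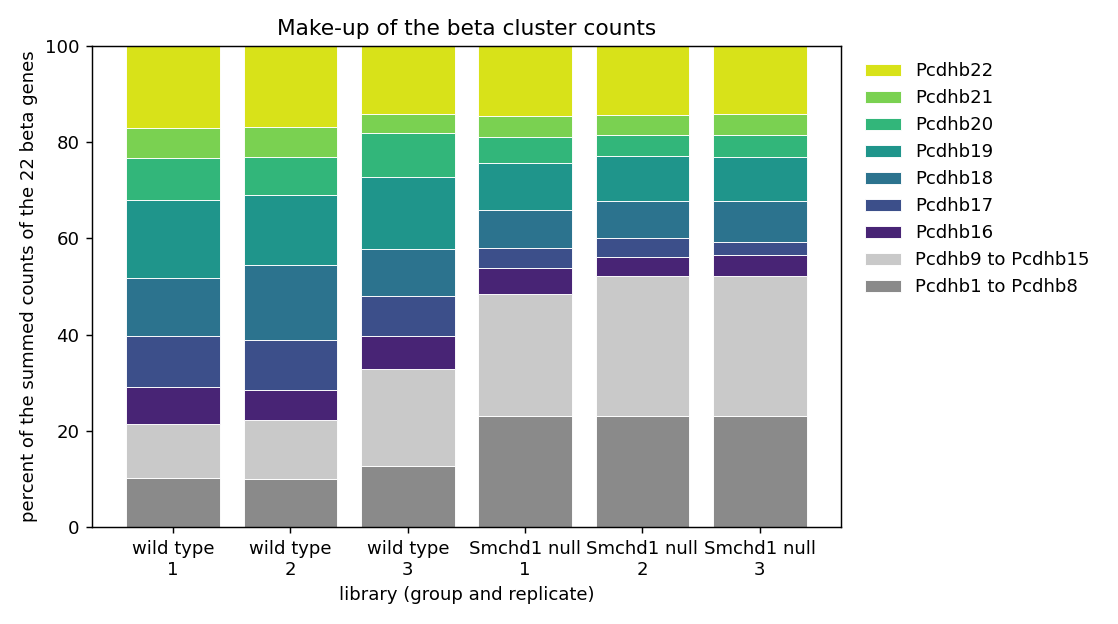
Percent of the summed counts of the 22 beta genes taken by Pcdhb1 to Pcdhb8, Pcdhb9 to Pcdhb15 (greys) and each of Pcdhb16 to Pcdhb22 (colours), with 1 bar for each library. The coloured part covers 67.2% to 78.6% of each wild type bar and 47.8% to 51.5% of each null bar.

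The genes on either side of the 7 did not pass the test. Pcdhb15, 1427 bases upstream of Pcdhb16, stood at 0.698, 1.15 and 1.19 CPM in the wild type libraries and 1.46, 1.08 and 0.936 CPM in the null ones, and its log2 fold change was 0.24 ± 0.30 (SE; adjusted p = 0.668 from edgeR). For Pcdhb14, the next one out, the log2 fold change of 0.87 ± 0.31 did not pass (adjusted p = 0.218), with overlapping groups. On the gamma side, Slc25a2, a mitochondrial carrier gene on the opposite strand, had 27, 18 and 3 counts in wild type and 4, 12 and 7 in null. Taf7, also on that strand, which encodes a subunit of the general transcription factor TFIID, stood at 20.9 ± 2.40 CPM in the wild type libraries and 17.7 ± 0.704 CPM in the null ones (mean ± SD, n = 3). Its log2 fold change of -0.24 ± 0.10 (SE) did not pass (adjusted p = 0.254 from edgeR), and with total count scaling it was 0.044, below the median of 0.32 that all tested genes then had. The first gamma genes Pcdhga1 (0.52 ± 0.18) and Pcdhgb1 (0.54 ± 0.16) did not pass either, though for both all null libraries lay above the wild type ones.

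Among 6 genes next to the cluster on the gamma side, edgeR, DESeq2 and limma-voom each called 0. An unadjusted p under 0.05 from edgeR was found for 3 of them with higher and 2 with lower values in null, and for 18.6% of all tested genes. The groups did not overlap for 3 of them with null higher and 1 with null lower, and for 22% of all tested genes in either direction. With wild type replicate 3 left out, 3 of them were called higher and 2 lower in edgeR. Of 19 genes around the clustered protocadherins, outside all 3 clusters, 16 were tested. There edgeR, DESeq2 and limma-voom each called 0, with 2 at an unadjusted p under 0.05 in edgeR, both lower in null, and a median log2 fold change of -0.05. Without wild type replicate 3, where 2857 genes of 14494 were called higher and 2819 lower, 17 of these genes were tested, and 2 were called higher and 4 lower.

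Genes known for work on protocadherin promoters were followed from 3 lists. Of 11 genes of promoter choice and DNA looping, Ctcf and genes of cohesin subunits among them, edgeR and limma-voom called 0 and DESeq2 called 1 lower, with 2 at an unadjusted p under 0.05 in edgeR. Smc1a, a cohesin subunit, had the smallest p, with 377 ± 23.5 CPM in the wild type libraries and 320.0 ± 8.18 CPM in the null ones (mean ± SD, n = 3) and a log2 fold change of -0.24 (adjusted p = 0.172 from edgeR). Of 13 silencing and DNA methylation genes, edgeR called 1, Smchd1, while DESeq2 and limma-voom each also called 1 gene higher. Lrif1, whose protein binds SMCHD1, stood at 8.22, 9.42 and 10.7 CPM in the wild type libraries and 14.8, 15.6 and 14.7 CPM in the null ones, giving a log2 fold change of 0.68 (SE 0.12; adjusted p = 0.0505 from edgeR). Of 12 genes of protocadherin signalling and processing, 11 were tested. There edgeR, DESeq2 and limma-voom each called 0, with 1 at an unadjusted p under 0.05 in edgeR. With wild type replicate 3 left out, the looping list had 1 gene called higher and 7 lower in edgeR, the silencing list 1 and 6, and the signalling list 2 and 3. Of all 14494 genes tested there, 2857 were called higher and 2819 lower.

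The genes whose levels followed the 7 most closely over the 6 libraries were found by the Pearson correlation of log2 CPM with the mean standardised profile of the 7. Among 12174 genes they were Pcdhga11 (0.997), the zinc finger gene Zfp976 (0.995), Rab33b (0.994), Mettl21a (0.994) and Pcdhb3 (0.992). All 6 libraries share genotype groups and depth differences, and 124 genes exceeded 0.95, so the values are a description of 6 points. The likeness held across very different sizes of change, with log2 fold changes of 3.35 for Pcdhb3, 1.58 for Zfp976, 0.42 for Pcdhga11, 0.26 for Mettl21a and 0.24 for Rab33b. Pcdhb22 by itself was followed best by Pcdhb12 (0.999). Only 37.7% of the windows of 100 bases in Pcdhb12 were unique, and the others were shared with Gm37446 and Pcdhb11, not with Pcdhb22. Pcdhb21 was followed best by Ndn (0.996), an imprinted gene that rose in null cells (log2 fold change 0.99, adjusted p = 0.000405 from edgeR).

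Total count scaling, which leaves the skew of wild type replicate 3 uncorrected, raised the median log2 fold change of all tested genes by over 0.1, to 0.32. It also raised the 7 genes, to 0.56 for Pcdhb17 and up to 1.87 for Pcdhb22. By their sample names, wild type replicates 1 and 2 are NPC_RNA_113 and NPC_RNA_114, while the other 4 libraries are numbered 11 to 14, and a term for this split rests on wild type replicate 3 alone. With it Pcdhb18, Pcdhb19, Pcdhb21 and Pcdhb22 were called higher (log2 fold changes 1.10, 0.67, 1.44 and 1.36), and Pcdhb21 exceeded Pcdhb22.

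**Figure D5:**
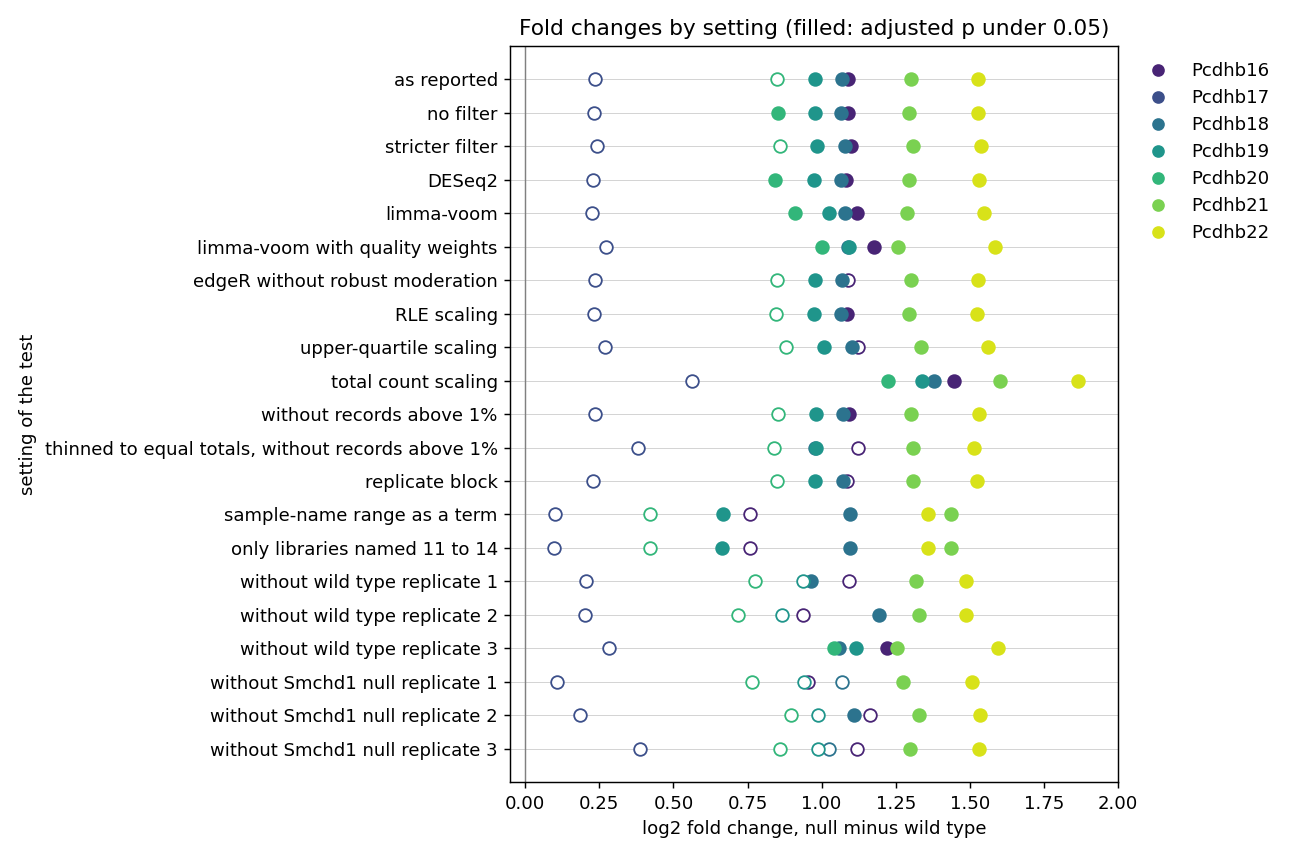
Log2 fold change, null minus wild type, of the 7 genes (colours) under each setting of the test (vertical axis), filled where the adjusted p was under 0.05. Pcdhb21 and Pcdhb22 are filled in every row and Pcdhb17 in none, while Pcdhb16, Pcdhb18, Pcdhb19 and Pcdhb20 change with the setting.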

How the data were processed

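The deposited values are raw counts per gene with an Entrez ID and a gene length, 1 table for each of 6 libraries. Per the labels' protocols, libraries were made from 1 µg of total RNA with the TruSeq RNA v2 kit and read from one end. Strand is not marked by this kit, and reads of overlapping antisense RNA were not separable. The submitters' processing notes list mm10 as the build and name limma 3.22.0, edgeR 3.8.2, featureCounts and CASAVA 1.8.2. Aligner and annotation are not stated in the sources used here. Every pair of replicates differed by more than sampling noise (mean chi-square per gene, on unscaled total counts, of at least 7.72). The medians were much lower, 0.927 to 1.31 in pairs without wild type replicate 3, so typical genes differed far less than the mean.

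Symbols and coordinates came from RefSeq GRCm38.p6, the assembly of mm10, which matched 25275 IDs (93.0%). Unmatched IDs stayed in the tests. After filterByExpr and TMM scaling, edgeR 4.0.16 (R 4.3.3) fitted genotype to the counts by quasi-likelihood with robust moderation. The fit was run on simulated data with set changes between the groups. No simulated library stood apart from its group as wild type replicate 3 did, so the simulation does not cover that case. The standard error is the fold change divided by the root of its F statistic. Other settings used DESeq2 1.42.0, limma-voom (limma 3.58.1), other filters and scalings, thinning, a replicate block, the sample-name range, and leaving out each library. Coding sequences were aligned, and exact windows searched on both strands, in GENCODE M21 transcripts.

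Members and gene lists were chosen with earlier results of these data known. Named were the 7 genes, Smchd1, the neighbours, the 2 genes with the smallest p of each list and the 5 most alike, and not all of these are printed.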

Additional observations from a re-analysis of the deposited data

How the results depend on the processing

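Of the 7 genes, 4 to 6 were called higher in null under every setting that kept all libraries or only those named 11 to 14, and 2 to 6 with 1 library left out. Leaving out 1 library moved the calls over all tested genes between 29 and 2857 higher and between 1 and 2819 lower, against 72 and 10 with all 6 libraries, and the count of 2857 and 2819 came without wild type replicate 3. Counts of all genes called higher and lower were 163 and 59 with no filter, 177 and 221 with DESeq2, 116 and 29 with limma-voom, 2736 and 2493 with limma-voom and quality weights, 454 and 3 with total count scaling, and 126 and 250 among the libraries named 11 to 14 alone. The replicate block left 6 calls lower and 48 higher, and the sample-name term gave 109 lower. The causes were not tested. Libraries with the same number in their titles had correlations of deviations from their group means of -0.006, 0.027 and -0.041. Pairs with different numbers ran from -0.052 to 0.057. With 3 libraries in each group these values cannot decide whether the numbers pair the libraries. With the block 4 of the 7 genes were called, and Pcdhb16 was the 1 that lost its call. Directions turned for Pcdhb15 with thinning (-0.10), the sample-name term (-0.046), the libraries named 11 to 14 alone (-0.047), and for Slc25a2 with the sample-name term (0.24) and those libraries alone (0.24). Total count scaling moved the median of all tested genes to 0.32 and with it Taf7 to 0.044 and Smc1a to 0.064, both still below that median. With 1 library left out Pcdhb15 ran from -0.0165, without wild type replicate 1, to 0.403, without wild type replicate 2. None of the 7 genes turned direction under any of the 20 alternatives. The lowest count of the 7 genes was 35, for Pcdhb21 in wild type replicate 3.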
